A study of Mus musculus with 6 samples.

Results

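Among hippocampal nuclei sorted for a transcription factor of myeloid cells, a small group carried several transcripts of Gpnmb, Adam33, Ahnak2, Stra6l, Mmp12, Atp6v0d2 and Myof. These Gpnmb-high nuclei are described here. A nucleus was taken when it held 3 or more unique molecular identifiers (UMIs, 1 per captured transcript) summed over those 7 genes and fewer than 2 UMIs summed over F13a1, Mrc1, Cd163, Cd209f and Cbr2, which mark border-associated macrophages. Of 31738 nuclei with at least 200 detected genes and at most 5% mitochondrial UMIs, 803 met the rule. The 7 genes were picked from a cluster of these same nuclei, so their levels are a description, and the direction of genes that move with them is not independent evidence.

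Microglia, the resident macrophages of the brain, lower their homeostatic genes and raise lysosomal and lipid-handling genes around pathological protein deposits, a state called disease-associated microglia (DAM). TREM2 is a lipid-sensing surface receptor that signals through the adaptor TYROBP and is needed for the full DAM state around amyloid. APOE carries lipid between cells, and its APOE4 form raises the risk of Alzheimer's disease. Gpnmb encodes a transmembrane glycoprotein that macrophages and osteoclasts raise under lysosomal and lipid load.

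Nuclei were sorted for PU.1, a transcription factor of myeloid cells, from the hippocampus of mice aged 9.5 months, and each of 6 libraries pooled 3 mice of a single genotype. The genotypes crossed 3 backgrounds, P301S/E4, P301S/EKO and E4, with intact (TREM2+) or deleted (TREM2-) Trem2. P301S is a human tau transgene with a disease mutation, E4 is human APOE4 in place of mouse Apoe, and EKO is deletion of Apoe, so only the E4 background lacks the tau transgene. The series asks whether the microglial response to tau with APOE4 needs TREM2. With 1 library a genotype, a difference between genotypes cannot be told apart from a difference between pools of mice or library preparations, and no p-value is given for one.

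Depth and identity bear on all that follows. The 6 libraries held 29794968 UMIs over 33335 deposited nuclei. Gpnmb-high nuclei were deeper than the other passing nuclei (same filters, fewer than 3 UMIs of the 7 genes, fewer than 2 of the 5 border macrophage genes): the median was 1076 against 762 UMIs in P301S/E4/TREM2+ and 1364 against 890 in P301S/E4/TREM2-. Between 5 and 13 barcodes were shared by each pair of libraries, 4 Gpnmb-high nuclei had a barcode found in another library, and 0 barcodes were Gpnmb-high in 2 libraries. Trem2 in the Gpnmb-high nuclei stood at 999 UMIs per 1000000 (CPM) in P301S/E4/TREM2+ and at 521 CPM in P301S/E4/TREM2-, so transcripts were still counted after deletion. Which part of the gene the allele removes is not given in the sources used here. Counts were made on mm10, a mouse genome, so Apoe is the count of the mouse gene also in E4 mice. How much of the human APOE4 transcript that count takes up is not given either.

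Gpnmb and Adam33 carried most of the counts that chose the nuclei. Gpnmb was found in 80.3% of the Gpnmb-high nuclei of P301S/E4/TREM2+, at 1866 CPM against 68.2 CPM in other nuclei. In P301S/E4/TREM2- it was found in 89.6%, at 2085 against 50.1 CPM. Adam33, a membrane metalloprotease, was found in 64.0% and 61.4% of the Gpnmb-high nuclei of these libraries, at 1241 and 884 CPM. Ahnak2, a very large scaffold protein related to Ahnak, reached 479 and 564 CPM. Myof, a membrane-repair protein of the ferlin family, reached 165 and 149 CPM, Atp6v0d2, a proton-pump subunit abundant in osteoclasts, 163 and 125 CPM, and Stra6l, a receptor for retinol-binding protein, 163 and 178 CPM.

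**Figure D1:**
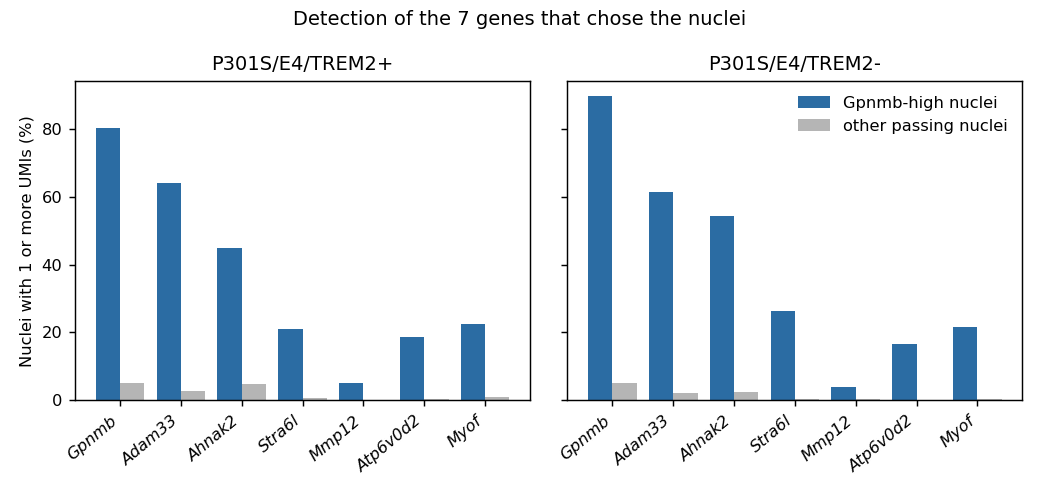
Share of nuclei with at least 1 UMI (%) of each of the 7 genes that chose the nuclei, in Gpnmb-high (blue) and other passing nuclei (grey) of the 2 P301S/E4 libraries. Gpnmb was detected in 80.3% and 89.6% of the Gpnmb-high nuclei and Mmp12 in 5.10% and 3.90%; the bars show the choice itself and test nothing.

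Mmp12, the macrophage elastase, behaved unlike the other 6 genes. It was found in only 16 (TREM2+) and 18 (TREM2-) Gpnmb-high nuclei of the P301S/E4 libraries, and 5 nuclei held 73.8% and 75.8% of its UMIs, with up to 18 and 39 UMIs in a single nucleus. Most Gpnmb-high nuclei had more than 1 of the 7 genes: 86.0% and 85.0% had at least 2, and 47.5% and 51.8% had at least 3. Gpnmb itself was not counted in 62 of 314 and 48 of 461 nuclei. Nuclei without a Gpnmb UMI were set beside those with one, with no test. In those without one, the DAM stage 2 genes summed to 11084 against 10749 CPM in P301S/E4/TREM2+, and to 6841 against 6485 CPM in P301S/E4/TREM2-. Other lists lay further apart: in P301S/E4/TREM2+, MHC class II genes were at 1136 against 691 CPM and monocyte markers at 117 against 229 CPM, and in P301S/E4/TREM2- neuron markers were at 365 against 735 CPM.

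Promoters are shown for the 2 of the 7 genes whose start-site window held TGAGTCA, the core that AP-1 factors bind in macrophages, on either strand (TGACTCA on the other). The windows ran from 250 bases before to 20 bases after a RefSeq start site (GRCm38.p6, 5′ to 3′ on the gene's strand); capitals mark the match. RefSeq start-site windows were matched for 5 of the 7 genes. The Gpnmb window is chr6:49036268-49036537, plus strand, and its match began at base 9 after the start. The Mmp12 window is chr9:7347124-7347393, plus strand, with the match at base -44; the other Mmp12 window had none.
Gpnmb: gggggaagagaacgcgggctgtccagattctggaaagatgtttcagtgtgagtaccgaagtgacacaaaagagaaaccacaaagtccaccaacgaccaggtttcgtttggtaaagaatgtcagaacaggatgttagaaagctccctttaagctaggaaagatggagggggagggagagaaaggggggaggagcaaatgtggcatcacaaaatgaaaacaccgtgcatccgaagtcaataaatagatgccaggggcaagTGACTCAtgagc
Mmp12: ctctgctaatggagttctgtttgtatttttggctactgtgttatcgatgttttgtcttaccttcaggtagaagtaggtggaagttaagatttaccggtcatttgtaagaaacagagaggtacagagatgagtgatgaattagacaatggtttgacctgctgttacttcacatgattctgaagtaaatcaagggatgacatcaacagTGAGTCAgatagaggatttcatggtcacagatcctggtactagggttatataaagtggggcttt
Over all 32851 windows of this length, 4.77% held TGAGTCA, and 5.5% of all 27025 genes had a window with it. The E-box core CACGTG, which the lysosomal factors MITF and TFEB bind, was in 0 of the 5 genes' windows. It was in 6.57% of all windows and in windows of 7.45% of all genes. CATGTG, a related form, was in the windows of Mmp12 and Ahnak2, in 13.1% of all windows and in windows of 14.7% of all genes. Its other-strand form CACATG was counted with it.

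Gpnmb-high nuclei came mostly from the tau libraries with APOE4. They made up 5.08% (95% exact binomial interval 4.54 to 5.65) of passing nuclei in P301S/E4/TREM2+, 314 of 6186. In P301S/E4/TREM2- they made up 6.58% (6.01 to 7.19), 461 of 7004. On P301S/EKO the TREM2+ library gave 16 nuclei, 0.447% (0.256 to 0.724), and the TREM2- library 2 nuclei, 0.0396% (0.0048 to 0.143). On E4 without tau, TREM2+ gave 5 nuclei, 0.0983% (0.0319 to 0.229), and TREM2- also 5, 0.104% (0.0336 to 0.242). Intervals cover counting error only, not the spread between mice.

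Free RNA can place a few counts in any nucleus. Among 140 nuclei with 20 or more neuron marker UMIs, which should lack these genes, 1 met the rule (0.714%, interval 0.0181 to 3.92; median depth 3440 UMIs). That nucleus was of P301S/E4/TREM2- and held 198 neuron and 99 microglia marker UMIs. Whether it was a doublet or held free RNA was not tested. The 7 and 18 such nuclei of P301S/EKO and 29 and 62 of E4 gave 0. The 4 low shares lay within the interval, in nuclei of lower median depth. The interval rests on that 1 nucleus, so it cannot tell these shares apart from background. After each nucleus was thinned to 500 UMIs, the shares in the P301S/E4 libraries were 2.41% (2.04 to 2.82) and 2.86% (2.48 to 3.27), with intervals that overlap, and the other 4 lay between 0.0453% and 0.168%. Thinning left out 1827 shallower nuclei of P301S/EKO/TREM2-, 1488 and 417 of the E4 libraries (TREM2+, then TREM2-) and 0 of the other 3.

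**Figure D2:**
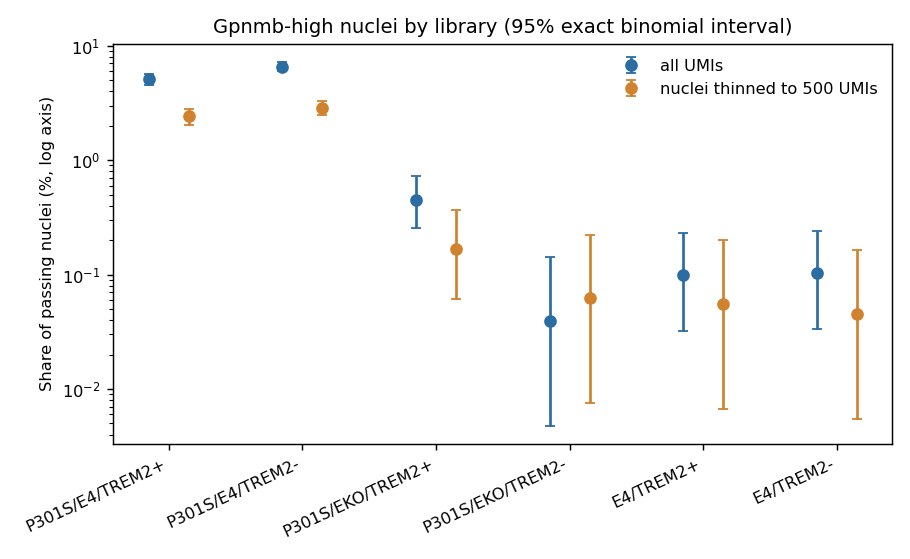
Share of passing nuclei that were Gpnmb-high (%, log axis) in each of the 6 libraries, from all UMIs (blue) and after thinning to 500 UMIs a nucleus (orange), with 95% exact binomial intervals that cover counting error only. The P301S/E4 libraries stood at 5.08% and 6.58% from all UMIs and no other library was above 0.447%.

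The few nuclei outside P301S/E4 differed in which of the 7 genes they met the rule through. In the 2 E4 libraries, 10 and 14 of their UMIs were of Adam33 and 0 and 1 were of Gpnmb. In P301S/EKO/TREM2-, 6 of the 8 UMIs were of Mmp12. In P301S/EKO/TREM2+, 8 of 16 nuclei held a Gpnmb UMI and 3 met the count through Gpnmb alone.

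The label of microglia was checked on genes outside the rule. Gpnmb-high nuclei held a median of 19 UMIs of 23 microglia markers, against 20 in other nuclei, in P301S/E4/TREM2+, and 17 against 23 in P301S/E4/TREM2-. The markers summed to 19156 CPM against 25217 in other nuclei of P301S/E4/TREM2+, and to 15548 against 24784 in P301S/E4/TREM2-. Markers of other cells were counted too. Border macrophage markers outside the rule summed to 1060 against 384 CPM and to 1124 against 631 CPM, with 5 and 3 of 12 at 0. Monocyte markers summed to 213 against 71.2 CPM and to 448 against 122 CPM, with 7 and 2 of 14 at 0. Neuron markers were at 456 against 713 CPM and 707 against 964 CPM. T and NK cell markers gave 0 and 3 UMIs. Nuclei with 3 or more UMIs of markers of non-myeloid brain cells made up 30.6% and 26.9% of Gpnmb-high nuclei against 16.4% and 15.6% of others, at the higher depth given above. Without these nuclei, 1016 genes were called in the first comparison below, against 1063 with them, and 204 in the second, against 187. The markers include Flt1, found in 80 and 27 Gpnmb-high nuclei of the P301S/E4 libraries, and Slc1a3, found in 79 and 101. Whether such UMIs came from other cells was not tested. The part of the border macrophage and monocyte transcripts is given below only as the values shown. These sums pool all Gpnmb-high nuclei. Subgroup 2 below, with 39.3% of those of P301S/E4/TREM2-, had monocyte markers at 1013 against 219 CPM in the remaining Gpnmb-high nuclei. Its microglia markers were at 9792 against 18382 CPM. The label is least sure for this subgroup, and whether its nuclei were microglia was not tested.

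The count of 3 was not a natural break. In P301S/E4/TREM2+, 180 nuclei held 2 UMIs of the 7 genes and 94 held 3, and in P301S/E4/TREM2- 128 held 2 and 96 held 3. P2ry12, the purinergic receptor that marks resting microglia, was at 394, 307, 186 and 203 CPM in nuclei with 0, 1, 2 and 3 of these UMIs in P301S/E4/TREM2+. In P301S/E4/TREM2- the same steps gave 590, 473, 263 and 292 CPM. Nuclei just outside the rule were therefore as low in P2ry12 as nuclei just inside it.

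Relative to other nuclei of the same library, Gpnmb-high nuclei had lower homeostatic genes, higher lipid-handling and oxidative stress genes, and a split response of the DAM genes. UMIs were summed over Gpnmb-high and over other nuclei within each P301S/E4 library, the only libraries with 20 or more Gpnmb-high nuclei, and tested with edgeR's quasi-likelihood test with the library as a block. Of 11858 genes, 1063 (8.96%) passed an adjusted p of 0.05, 640 (5.4%) higher and 423 (3.57%) lower, and 1046 had the same direction in both libraries. The median log2 fold change over all genes was -0.0087. The test has 4 sums and 1 residual degree of freedom, so its p-values rest on the spread pooled over genes. DESeq2 called 223 of the same genes (1.88%), 169 higher and 54 lower.

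Homeostatic genes fell together. Of 22 tested, 17 fell, 0 rose and the median log2 fold change was -0.74, with library medians of -0.56 in P301S/E4/TREM2+ and -0.99 in P301S/E4/TREM2-. Siglech, a lectin receptor of resting microglia, was at 432 CPM against 946 in P301S/E4/TREM2+ and at 408 against 933 in P301S/E4/TREM2- (log2 fold change -1.11 ± 0.10 SE, edgeR adjusted p = 2.1e-26). P2ry12 was at 193 against 375 CPM and at 265 against 568 CPM (-0.99 ± 0.11). Tmem119, a membrane protein restricted to microglia, was at 76.4 against 151 CPM and at 130 against 269 CPM (-0.97 ± 0.14). Sall1, a transcription factor of microglial identity, fell by 0.78 ± 0.13 on the log2 scale. Each was lower in Gpnmb-high nuclei of both libraries. Of the 23 microglia markers, most of them also on this list, 18 fell and 0 rose.

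DAM genes did not move as a block. Of 10 stage 1 genes, which rise without TREM2 in amyloid models, 5 rose, B2m fell and the median was 0.18. Lyz2, lysozyme, was at 1168 against 539 CPM in P301S/E4/TREM2+ and at 890 against 550 CPM in P301S/E4/TREM2- (0.95 ± 0.09). Apoe, the lipid carrier, counted as the mouse gene, was at 1538 against 1138 CPM and at 868 against 767 CPM (0.36 ± 0.09). Of 22 stage 2 genes, 9 rose, Cd9 and Serpine2 fell and the median was 0.10, with library medians of 0.18 and -0.04. Spp1, the secreted phosphoprotein osteopontin, was at 1762 against 311 CPM in P301S/E4/TREM2+ and at 349 against 57.6 CPM in P301S/E4/TREM2- (2.59 ± 0.10, adjusted p = 1.9e-140). Igf1, a trophic growth factor, was at 432 against 98.4 CPM and at 162 against 42.1 CPM (2.10 ± 0.13). The excess of both genes was seen in both libraries, from a lower base in P301S/E4/TREM2-. Cd9, a tetraspanin, was at 694 against 935 CPM and at 423 against 698 CPM (-0.53 ± 0.10).

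Genes of cholesterol efflux and lipid storage rose in 12 of 21 tested, with 0 lower and a median log2 fold change of 0.58. Fabp5, a fatty acid chaperone, was at 199 against 60.6 CPM in P301S/E4/TREM2+ and at 279 against 39.3 CPM in P301S/E4/TREM2- (2.40 ± 0.14, adjusted p = 2.3e-66). Soat1, which esterifies cholesterol for storage in droplets, was at 370 against 214 CPM and at 377 against 194 CPM (0.94 ± 0.10). Fabp4, a fatty acid chaperone of adipocytes and macrophages, was at 12.1 against 0.201 CPM and at 30.0 against 1.48 CPM (4.62 ± 0.58). Pparg, a lipid-sensing nuclear receptor, was at 10.0 against 0.601 CPM and at 10.4 against 0.444 CPM (4.29 ± 0.77). For each of these 4 genes both Gpnmb-high values lay above both values in other nuclei, though Fabp4 and Pparg rest on few transcripts. Fabp4 was at 92.1 CPM in subgroup 2 below and at 8.12 CPM in the remaining Gpnmb-high nuclei. Of 14 cholesterol synthesis genes, 2 rose, and 0 did with RLE factors, with no expression filter, with 1000 or more UMIs, after thinning or with DESeq2.

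Iron and oxidative stress genes rose in 7 of 13, with 0 lower and a median of 0.70. The median came mostly from P301S/E4/TREM2-, at 0.91 against 0.21 in P301S/E4/TREM2+. Slc7a11, the cystine importer that feeds glutathione synthesis, was at 24.1 against 8.42 CPM in P301S/E4/TREM2+ and at 81.9 against 14.2 CPM in P301S/E4/TREM2- (2.31 ± 0.27, adjusted p = 4.7e-16). Hmox1, which breaks down haem, was at 12.1 against 7.82 CPM and at 19.7 against 6.81 CPM (1.26 ± 0.44). Sqstm1, the autophagy receptor p62, was at 32.2 against 34.5 CPM and at 86.0 against 37.6 CPM (0.86 ± 0.20), so its rise came from P301S/E4/TREM2-. Ftl1, ferritin light chain, was at 350 against 257 CPM and at 414 against 239 CPM (0.70 ± 0.10). With DESeq2, 2 of the 13 were called higher and 0 lower.

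Lysosomal genes had a small median, though they held more calls for their size than the 5.4% higher and 3.57% lower over all genes. Of 25, 5 rose, 2 fell and the median was 0.081, with library medians of 0.17 and -0.05. Psap, the precursor of lipid-degrading cofactors, was at 1094 against 933 CPM in P301S/E4/TREM2+ and at 1477 against 1133 CPM in P301S/E4/TREM2- (0.36 ± 0.09), and Npc1, the lysosomal cholesterol exporter, rose by 0.63 ± 0.10. Ctss, a lysosomal protease that resting microglia express strongly, was among those that fell. Of 15 proton pump (V-ATPase) subunits besides Atp6v0d2, 4 rose, 0 fell and the median was 0.13; Atp6v1a rose by 0.82 ± 0.17. Of 4 MiT/TFE transcription factors, which drive lysosomal genes, Tfec rose on 3.08 ± 0.62 from 6.03 against 0.802 CPM and 17.6 against 2.07 CPM. The other 3 did not pass the test, Mitf at 0.23 with adjusted p = 0.25. Of 11 osteoclast genes tested, 4 rose and 0 fell, with a median of 0.10. Acp5, the acid phosphatase that marks osteoclasts, was at 6.03 against 0 CPM and at 20.7 against 1.04 CPM. Clcn7, a lysosomal chloride exchanger, was at 211 against 127 CPM and at 328 against 175 CPM (0.89 ± 0.11).

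Genes of the inhibitory receptor list were divided, 8 higher and 3 lower of 16, with a median of 0.31. Lilr4b, a leukocyte immunoglobulin-like receptor, was at 310 against 60.5 CPM in P301S/E4/TREM2+. In P301S/E4/TREM2- it was at 657 against 90.9 CPM (2.72 ± 0.11, edgeR adjusted p = 4.9e-126). Cd300lf, a lipid-binding receptor, was at 177 against 79.8 CPM and at 546 against 185 CPM (1.48 ± 0.11). Lag3, an immune checkpoint receptor, was at 203 against 349 CPM and at 123 against 248 CPM (-0.85 ± 0.12). Lilr4b, Lilrb4a and Pirb have close copies, so the split of reads between them is uncertain.

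Genes of the actin cortex and membrane repair rose in 7 of 17, with Fscn1 lower and a median of 0.49. Lgals3, galectin-3, which binds damaged lysosomes, was at 76.4 against 16.8 CPM in P301S/E4/TREM2+ and at 136 against 19.6 CPM in P301S/E4/TREM2- (2.62 ± 0.20). Myo5a, a vesicle motor, was at 398 against 255 CPM and at 435 against 216 CPM (0.90 ± 0.10). Vim and S100a6 passed the test, but a single nucleus of P301S/E4/TREM2+ held 130 of 150 Vim and 41 of 45 S100a6 UMIs, and in P301S/E4/TREM2- S100a6 was lower, at 11.4 against 15.9 CPM. With nuclei under 3000 UMIs S100a6 turned to -0.63. That nucleus also held 86 astrocyte and 56 oligodendrocyte marker UMIs, 10 microglia marker UMIs and 9 Gpnmb UMIs.

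Complement fell: 6 of 10 genes were lower, C3ar1 was higher and the median was -0.43, with library medians of -0.24 and -0.68. C1qa, a chain of the first complement component, was at 3523 against 4216 CPM in P301S/E4/TREM2+ and at 2145 against 3603 CPM in P301S/E4/TREM2- (-0.45 ± 0.10). Among 12 ITAM adaptors and kinases, which carry TREM2 signals, 2 rose, 4 fell and the median was -0.15. The 4 lower calls became 0 with 1000 or more UMIs, with 5 UMIs of the rule genes and with DESeq2, and 2 with RLE factors. Syk rose by 0.39 ± 0.11 and Inpp5d, the phosphatase that opposes it, was at -0.32 ± 0.09.

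Interferon, MHC, NF-kB and glycolysis genes had small medians. The proliferation, integrin, growth factor and matrix lists held more calls for their size, against 5.4% higher and 3.57% lower over all genes. So did NF-kB and glycolysis genes on the higher side and, with 1 call each, the MHC lists on the lower side. Interferon response genes had 1 higher and 1 lower of 26 (median -0.15), the higher one being Ifi207, which has close copies. MHC class I genes had 0 higher and 1 lower of 9, and MHC class II genes 0 higher and 1 lower of 8. NF-kB and cytokine genes had 3 higher and 1 lower of 18, and glycolysis genes 2 higher and 1 lower of 16. Of 5 proliferation genes tested, 3 fell, with a median of -1.18, and 0 did with DESeq2. Integrins had 4 higher and 1 lower of 12, led by Itga4, which homes leukocytes to vessel walls, at 96.5 against 21.4 CPM and at 138 against 33.2 CPM (2.15 ± 0.18). Growth factors had 3 higher of 9, matrix proteases 4 higher and 1 lower of 15, and immediate early genes 1 of 9, Atf3.

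Genes that mark other myeloid cells stood out. Of 7 tested border macrophage markers outside the rule, 4 rose with a median of 1.77, and of 8 tested monocyte markers, 4 rose with a median of 1.44. The library medians of the monocyte markers were 2.04 in P301S/E4/TREM2+ and 0.57 in P301S/E4/TREM2-. One of the 4, Ahnak, a large scaffold protein, had all 13 of its P301S/E4/TREM2+ UMIs in the nucleus that held most of the Vim. Ms4a7, a macrophage tetraspan protein, was at 660 against 110 CPM in P301S/E4/TREM2+ and at 505 against 81.3 CPM in P301S/E4/TREM2- (2.66 ± 0.10, adjusted p = 2.4e-138). Cd38, an enzyme that consumes NAD and is on both lists, was at 20.1 against 2.21 CPM and at 131 against 15.6 CPM (3.15 ± 0.26). With only nuclei that held fewer than 2 monocyte marker UMIs, chosen after the data were seen, 919 genes were called, 830 of them among the 1063, and 12 of 21 lipid genes rose. The medians of the border macrophage and monocyte markers were then 2.00 and 1.25.

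**Figure D3:**
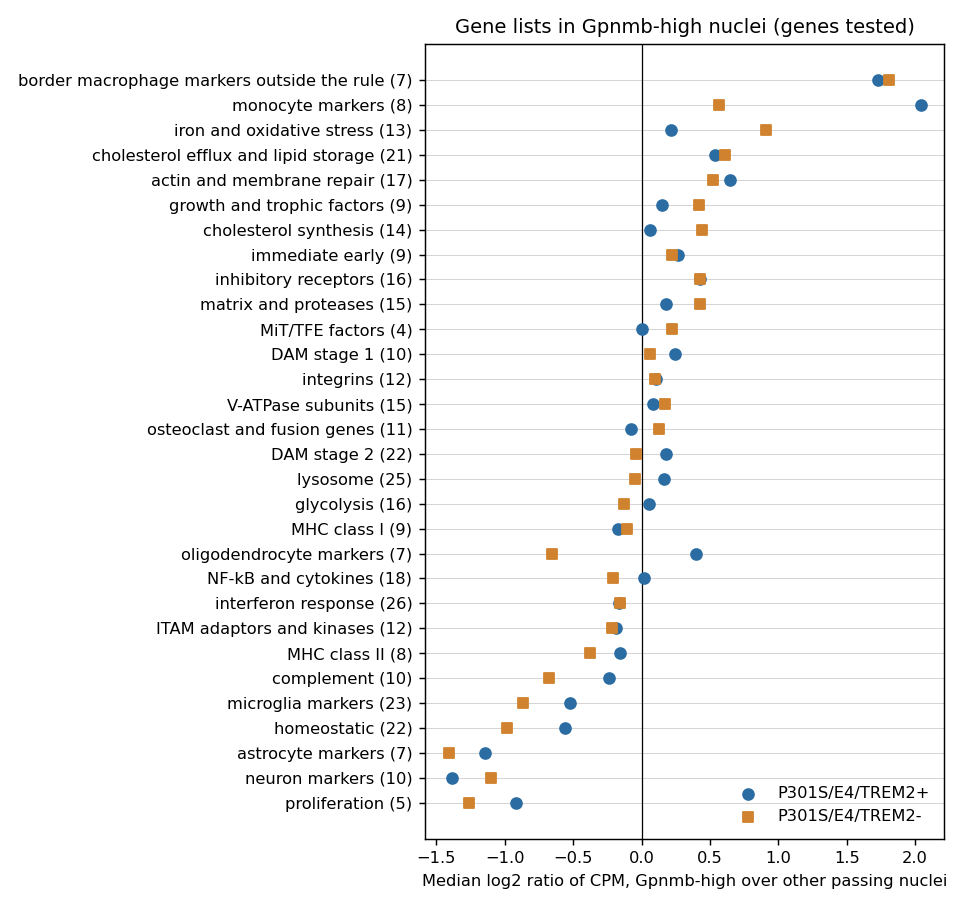
Median log2 ratio of CPM, Gpnmb-high over other passing nuclei of the same library, for the tested genes of each list (number in brackets), in P301S/E4/TREM2+ (blue circles) and P301S/E4/TREM2- (orange squares). Homeostatic and complement lists lay below 0 in both libraries and lipid, iron and actin lists above 0 in both.

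The 15 genes with the highest fold changes were led by Adgre5, Hal and Cd38. Adgre5 (mm10 chr8:83723251-83741326), the adhesion receptor CD97, was at 46.3 against 1.60 CPM in P301S/E4/TREM2+ and at 86.0 against 4.89 CPM in P301S/E4/TREM2- (4.38 ± 0.33, adjusted p = 3.7e-38). Hal (chr10:93488768-93519304), which deaminates histidine, was at 24.1 against 2.41 CPM and at 165 against 13.3 CPM (3.64 ± 0.25). Sash1, a signalling scaffold, was at 179 against 30.5 CPM and at 337 against 39.0 CPM (2.96 ± 0.14). Ms4a14, a relative of Ms4a7, was at 197 against 24.3 CPM and at 154 against 23.4 CPM (2.91 ± 0.17). Dkk2, a secreted Wnt regulator, was at 96.5 against 11.6 CPM and at 4.15 against 0.444 CPM (3.09 ± 0.41). Gdf15, a stress-induced cytokine, was at 12.1 against 2.81 CPM and at 70.5 against 9.18 CPM (2.84 ± 0.34). These 6 genes were higher in Gpnmb-high nuclei of both libraries, with Dkk2 mainly in the TREM2+ library and Hal, Cd38 and Gdf15 mainly in the TREM2- library. The other 8 were Ahnak, Mgst1, Ldlrad3, Iqgap1, Pde4d, Ifi203, Lilr4b and Alcam, between 2.71 and 3.02, and all 15 were also called by DESeq2. In P301S/E4/TREM2+ Ahnak came from a single nucleus (13 UMIs), so its direction there rests on that nucleus. Hal, Cd38, Ahnak, Pde4d and Ldlrad3 were also leading genes of subgroup 2 below, for which the microglia label is least sure. In that subgroup Hal was at 398 against 52.8 CPM in the remaining Gpnmb-high nuclei, and Cd38 at 335 against 38.2 CPM. The rest of the 15 were not among its leading genes.

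The 10 genes with the lowest fold changes were rare. Smim10l2a, Grin2a, Gja1, Slc17a7, Il1b, Adgra3, AC163720.3, Sst, Cenpe and Shank1 had 0 to 3 UMIs each in the Gpnmb-high nuclei of either library, with adjusted p between 0.0014 and 0.046, and none was called by DESeq2. Grin2a, Slc17a7, Sst and Shank1 are neuronal genes and Gja1 an astrocyte gene. Il1b, the inflammatory cytokine, had 2 UMIs in P301S/E4/TREM2+ and 0 in P301S/E4/TREM2-, against 56 and 54 in other nuclei.

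A second comparison set the Gpnmb-high nuclei against nuclei with 3 or more UMIs of the DAM genes Lpl, Itgax, Spp1, Cst7, Cxcl13 and Ccl6, so that both sides were chosen by counts. There were 555 such nuclei in P301S/E4/TREM2+ and 115 in P301S/E4/TREM2-. Of 7943 genes, 187 (2.35%) passed edgeR's test, 128 (1.61%) higher and 59 (0.743%) lower, and 184 had the same direction in both libraries. DESeq2 called 19 of them (0.239%). The median log2 fold change over all genes was 0.0041.

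Chemokines were the clearest genes on the lower side. The comparator nuclei were themselves chosen in part by counts of the chemokines Ccl6 and Cxcl13, so higher chemokines there are not independent of that choice. Ccl4 was at 167 against 389 CPM in P301S/E4/TREM2+ and at 139 against 437 CPM in P301S/E4/TREM2- (-1.38 ± 0.16, adjusted p = 1.5e-14). Ccl3 was at 107 against 201 CPM and at 61.1 against 313 CPM (-1.56 ± 0.20), and Ccl12 fell by 1.10 ± 0.24 on the log2 scale. Of 15 NF-kB and cytokine genes tested, Ccl3, Ccl4 and Ccl2 fell and 0 rose. Against other passing nuclei these genes were not called, and Il1b was the 1 lower call of 18. Cxcl10 had -1.51 ± 0.23, but it was at 64.4 against 63.5 CPM in P301S/E4/TREM2+ and at 73.6 against 375 CPM in P301S/E4/TREM2-, so the fall came from the TREM2- library.

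A few lipid and receptor genes rose in this comparison too. Fabp5 was at 199 against 78.3 CPM and at 279 against 75.0 CPM (1.59 ± 0.21), and Soat1 at 370 against 216 CPM and 377 against 190 CPM (0.91 ± 0.16). These were the 2 called of 15 lipid genes tested, whose median was 0.50. The iron and oxidative stress genes rose little here: of 12 tested, Fth1 alone rose, 0 fell and the median was 0.15. In P301S/E4/TREM2+, 1 Gpnmb-high nucleus held 112 of the 386 Fth1 UMIs. Ms4a7 was at 660 against 236 CPM and at 505 against 190 CPM (1.51 ± 0.15). Of 15 genes of the inhibitory receptor list, 3 rose. These were Lilr4b at 310 against 120 CPM and 657 against 203 CPM (1.57 ± 0.17), Cd300lf (1.20 ± 0.18) and Pirb (1.18 ± 0.23). Psap rose by 0.59 ± 0.12, the 1 higher call among 24 lysosomal genes. Of 21 homeostatic genes, 6 were lower and 0 higher, with a median of -0.43; Mef2c, a transcription factor of resting microglia, was at 2142 against 3251 CPM and at 1403 against 2450 CPM (-0.65 ± 0.11).

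The highest fold changes in this comparison were Adgre5 (3.67 ± 0.54), Vim, Ahnak (2.92 ± 0.49), Msrb1, a methionine sulfoxide reductase (2.37 ± 0.46), and Cd38 (2.27 ± 0.44). Next came Sash1, Ms4a14, Ifi203, Tmem106a, Hal, Mndal, Plekhm1, Trps1, Xdh and Slc27a1, between 1.75 and 2.07. Vim stood at 302 against 19.2 CPM in P301S/E4/TREM2+, of which 1 nucleus gave 130 of 150 UMIs, and its adjusted p was 0.083 with nuclei under 3000 UMIs and 0.313 without nuclei of 3 or more non-myeloid UMIs. The same nucleus gave all 13 Ahnak UMIs of P301S/E4/TREM2+. Ahnak, Cd38, Hal and Mndal were also leading genes of subgroup 2 below. The 10 lowest were Ccl3, Ccl4, Il4i1, Ccl12, Cdc14a, Adgrg1, Gatm, Atp8a2, Nav3 and Slc4a7, between -1.56 and -0.84. Ifi203 and Mndal have close copies.

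The authors' deposited table names 50 markers of a terminally inflammatory microglia cluster, chosen on these same libraries and so not independent of them. Of these, 3 were among the 7 rule genes. Of the other 47, 43 rose in Gpnmb-high nuclei against other nuclei, 0 fell and the median log2 fold change was 0.90. Against the Lpl and Itgax nuclei, 24 of 45 tested rose, 0 fell and the median was 0.52.

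Clustered among themselves without the rule genes, Trem2 or Apoe, the 803 nuclei formed 5 subgroups. Subgroups 0, 1, 2 and 3 each came mostly from 1 library. P301S/E4/TREM2+ gave 240 of the 281 nuclei of subgroup 0. P301S/E4/TREM2- gave 189 of 241 in subgroup 1, 181 of 185 in subgroup 2 and 61 of 83 in subgroup 3. Subgroup 0 (281 nuclei) held 76.4% of the Gpnmb-high nuclei of P301S/E4/TREM2+ and 4.99% of those of P301S/E4/TREM2-. Its leading genes included Dkk2, Spp1, Trpc4 and Flt1, and its DAM stage 2 genes summed to 11632 CPM against 6912 in the rest. Subgroup 2 (185 nuclei) held 0.955% and 39.3%. It was led by Ahnak, Ldlrad3, Eya1, Cd38, Pde4d and Hal, with 7475 CPM of the rule genes against 3392 in the rest, monocyte markers at 1013 against 219 CPM and microglia markers at 9792 against 18382 CPM. With 1 library a genotype, a subgroup mostly of 1 library may be that library and not a cell state.

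Subgroup 1 (241 nuclei) held 15.3% of the Gpnmb-high nuclei of P301S/E4/TREM2+ and 41.0% of those of P301S/E4/TREM2-. Its leading genes included the chemokines Cxcl2 and Ccl4 and the stress genes Gdf15, Slc7a11, Sqstm1 and Atf3. Its iron and oxidative stress genes summed to 2777 against 1680 CPM in the rest. Cxcl2 had 0 UMIs in the Gpnmb-high nuclei of P301S/E4/TREM2+ and 23 in those of P301S/E4/TREM2-. Subgroup 3 (83 nuclei, 5.73% and 13.2%) was the deepest, with a median of 5195 UMIs. Its homeostatic genes stood at 15148 against 9056 CPM and its rule genes at 1303 against 5754 CPM, so these nuclei met the count rule at low relative levels. A single nucleus there held 131 of the 142 Meg3 UMIs of P301S/E4/TREM2-, with 198 neuron and 99 microglia marker UMIs. Subgroup 4 (13 nuclei) was led by Gbp5, Iigp1, Ifit2 and Cxcl10, with interferon response genes at 19039 against 2191 CPM, and it had 5 nuclei in P301S/E4/TREM2+ and 7 in P301S/E4/TREM2-. The leading genes formed the clusters and are given as a description.

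**Figure D4:**
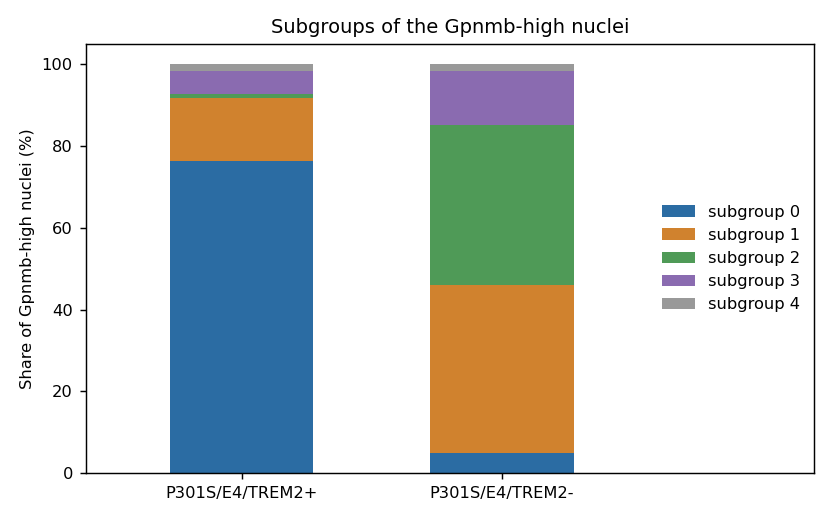
Share (%) of the Gpnmb-high nuclei of each P301S/E4 library in the 5 subgroups. Subgroup 0 made up 76.4% in P301S/E4/TREM2+ and 4.99% in P301S/E4/TREM2-, and subgroup 2 made up 0.955% and 39.3%.

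Within the Gpnmb-high nuclei, the P301S/E4 libraries with and without TREM2 were compared gene by gene as 1 library each, with no test. Intervals are exact and cover counting error only. Of 5183 genes with 50 or more UMIs, 224 (4.32%) differed 2-fold or more, 152 (2.93%) higher and 72 (1.39%) lower in P301S/E4/TREM2-, and the median log2 ratio was 0.07.

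DAM stage 2 genes were lower without TREM2 also inside the Gpnmb-high nuclei, 7 of 21 by 2-fold or more and 0 higher, with a median of -0.71 against -0.56 in other nuclei. Spp1 was at 349 against 1762 CPM, a log2 ratio of -2.33 (-2.52 to -2.15) against -2.43 in other nuclei. Lpl, lipoprotein lipase, was at 119 against 565 CPM (-2.25, -2.57 to -1.93), and Cd52, a short surface glycopeptide, was at 56.0 against 141 CPM (-1.33, -1.87 to -0.80) against -0.81 in other nuclei. Igf1 was at 162 against 432 CPM (-1.42, -1.73 to -1.12). Ccl6, Itgax and Cst7 completed the 7. Whether the ratios differ between Gpnmb-high and other nuclei was not tested.

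Oxidative stress genes lay the other way, with 4 of 9 higher by 2-fold or more and a median of 0.64 against 0.13 in other nuclei. Slc7a11 was at 81.9 against 24.1 CPM, a log2 ratio of 1.76 (0.88 to 2.77) against 0.76 in other nuclei. Sqstm1 was at 86.0 against 32.2 CPM (1.42, 0.64 to 2.29) against 0.13 in other nuclei. Txnrd1, a thioredoxin reductase, had 1.21 (0.57 to 1.92) against 1.02, and Gclc, the first enzyme of glutathione synthesis, 1.13 (0.42 to 1.91) against 0.50. Gdf15 was at 70.5 against 12.1 CPM (2.55, 1.35 to 4.04) against 1.71. Of the 3 monocyte markers with 50 or more UMIs, Ahnak and Cd38 were also higher by 2-fold or more, and the median of the 3 was 2.19 against 1.08 in other nuclei; their part in the stress gene ratios was not tested.

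The other lists varied. Homeostatic genes had 0 of 18 past 2-fold and a median of -0.04, and lysosomal genes 0 of 24 with a median of -0.03. V-ATPase subunits had 0 of 14 past 2-fold and a median of 0.38 against -0.01 in other nuclei. Lipid genes had Abcg1, a cholesterol exporter, higher at 403 against 179 CPM (1.17, 0.84 to 1.52), Lpl lower, and a median of 0.03; Fabp5 was at 279 against 199 CPM (0.49, 0.15 to 0.83) while in other nuclei it lay the other way, at -0.63. Of the inhibitory receptor list, Cd300lf (1.63, 1.30 to 1.97), Lilr4b and Pirb were higher in P301S/E4/TREM2-. Of 19 interferon response genes 4 were higher by 2-fold or more, with a median of 0.35 against 0.55 in other nuclei. The 5 MHC class II genes had a median of -0.72 against -0.35. Cd74, the MHC class II chaperone, was at 154 against 366 CPM (-1.25, -1.57 to -0.92). Trem2 itself had -0.94 (-1.12 to -0.76) and Apoe, counted as the mouse gene, -0.82 (-0.97 to -0.68).

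The largest single-gene ratios were Dkk2 at the low end (4.15 against 96.5 CPM, -4.54, -6.47 to -3.09) and Meg3 at the high end (147 against 6.03 CPM, 4.61, 3.03 to 6.90). Below -2.2 also lay S100a6, Cp, Flt1, Mt3, Etl4, Spp1 and Clu, and above 2.7 lay Rnf121, Mndal, Tgfbi, Gm12166, Cpne2, Snhg11 and Hal. Rnf121 differed as much in other nuclei (4.13 against 4.34). Tgfbi, a matrix protein that monocytes and macrophages secrete, was at 75.7 against 6.03 CPM (3.65, 2.04 to 5.96) against 1.26 in other nuclei. Most of the Meg3 and S100a6 UMIs lay in 1 nucleus of 1 library, as did 25 of the 40 Clu UMIs of P301S/E4/TREM2+ and 45 of the 87 Snhg11 UMIs of P301S/E4/TREM2-. The 3 astrocyte markers with 50 or more UMIs had a median of -1.13. Vim had -2.08 from all nuclei and 0.71 from those under 3000 UMIs.

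**Figure D5:**
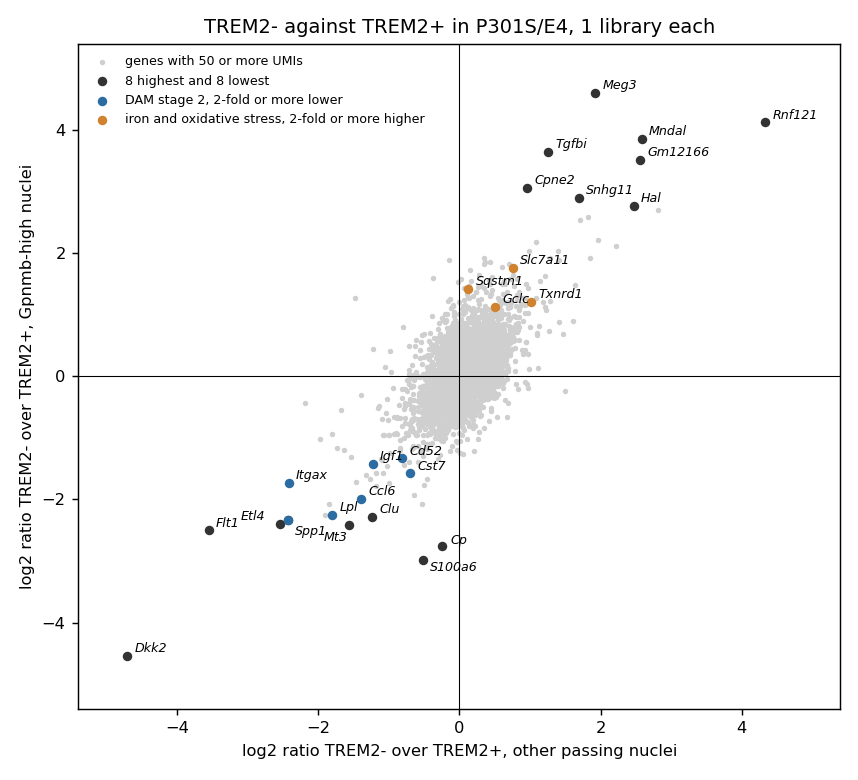
Log2 ratio of CPM, P301S/E4/TREM2- over P301S/E4/TREM2+ (1 library each), in Gpnmb-high nuclei (vertical) and in other passing nuclei (horizontal), for genes with 50 or more UMIs (grey), the 8 highest and 8 lowest (black) and the 2-fold changed genes of the DAM stage 2 (blue) and oxidative stress (orange) lists. Spp1 lies at -2.33 and -2.43, Slc7a11 at 1.76 and 0.76 on the 2 axes.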

How the data were processed

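Single-nucleus RNA was measured in 6 libraries of PU.1-sorted hippocampal nuclei. The authors deposited whole-number UMI counts per gene and nucleus in filtered matrices from Cell Ranger 3.0.1, per the file headers, on mm10, per the submitters' processing notes; the strand setting, the use of introns and any removal of doublets are not given in the sources used here. Their deposited marker tables also hold p-values and scores with a log fold change of unstated base; only their gene names were used, and those p-values and scores were not.

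Nuclei were chosen as the report describes. The members and gene lists were chosen with earlier results of these data known, and every p-value therefore describes these libraries. Counts were summed per library over Gpnmb-high, other passing or comparator nuclei, and tested with edgeR 4.0.16 (glmQLFit and glmQLFTest, limma 3.58.1, R 4.3.3) with TMM factors, filterByExpr, the library as a block and Benjamini-Hochberg adjustment over all genes; the 12 rule genes, and in the second comparison also the 6 comparator genes, were left out. SE is the log2 fold change over the root of its F value. DESeq2 1.42.0 was an alternative. The labels give 1 library a genotype, so the pairing tested is of sums within a library, which share their mice. Counts were also simulated. For the first comparison (11826 genes), 98% of genes changed by 2 on the log2 scale were recovered. Of those changed by 1, 75% were, and there were 12 false calls. For the second (8001 genes) the shares were 100% and 90%, with 7 false calls. Only well-counted genes were changed, and the simulated spread was the same for every gene. The shares therefore do not cover sparse genes or genes whose counts lie mostly in 1 nucleus.

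The genes named are the 15 highest and 10 lowest called genes with at least 100 UMIs and the same sign in both libraries, up to 4 genes a list (its called or most extreme genes), and the 8 highest and 8 lowest ratios between libraries. Genes named beyond these, such as members of a list described between libraries, were chosen after their values were seen. Subgroups came from Leiden clustering (scanpy 1.11.5, leidenalg 0.10.2, resolution 0.5). Doublets were not removed; nuclei with 3 or more UMIs of non-myeloid brain markers were left out as an alternative. Tests of the difference between tau libraries with and without Apoe, and by TREM2 over 4 libraries, were planned and not run, since only 2 libraries held 20 or more Gpnmb-high nuclei.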

Additional observations from a re-analysis of the deposited data

Results flagged for a closer look

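Nuclei with 2 or more UMIs of the border macrophage genes were kept out of every comparison, yet some carried the same 7 genes. In P301S/E4/TREM2+, 34 of 166 such nuclei had 3 or more UMIs of them, 20.5% (95% exact binomial interval 14.6 to 27.4), and in P301S/E4/TREM2- 68 of 312 did, 21.8% (17.3 to 26.8). In the E4 libraries without tau the shares were 8.85% (5.24 to 13.8) and 8.55% (5.30 to 12.9), and Adam33 gave 152 and 185 of the rule gene UMIs in all such nuclei. In the P301S/EKO libraries they were 3.51% (2 of 57) with TREM2 and 11.1% (9 of 81) without. A Gpnmb UMI was found in 12 of the nuclei of P301S/E4/TREM2+, 7.23% (3.79 to 12.3), and in 38 of P301S/E4/TREM2-, 12.2% (8.76 to 16.3). It was found in 0 nuclei of the other 4 libraries, with upper bounds of 6.27% and 4.45% in P301S/EKO and 1.90% and 1.56% in E4. Whether free RNA or doublets gave these counts was not tested.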

How the results depend on the processing

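Against other nuclei, 1063 genes were called; the count was 599 with nuclei of 1000 or more UMIs, 636 with 500 detected genes, 658 with 5 UMIs of the rule genes, 509 after thinning to 500 UMIs, 223 with DESeq2 and 44 with no replicate block, where the sums of a library are no longer paired. Against the Lpl and Itgax nuclei, 187 were called, 38 with 1000 or more UMIs, 43 after thinning, 19 with DESeq2 and 6 with no replicate block; the 19 and the 6 were all among the 187. With no expression filter, the split against other nuclei was 487 higher and 490 lower, against 640 and 423. The 224 genes past 2-fold between the P301S/E4 libraries became 80 after thinning, and the 5 subgroups became 9 at resolution 1. The cause of these changes was not tested.

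The share of Gpnmb-high nuclei moved with the rule. In P301S/E4/TREM2+ it was 7.99% with 2 UMIs, 2.81% with 5, 7.85% with 500 detected genes, 3.20% without Gpnmb and 2.41% after thinning. In P301S/E4/TREM2- the same settings gave 8.41%, 4.20%, 8.09%, 3.87% and 2.86%, and 7.55% with no exclusion of border macrophage nuclei. P301S/EKO/TREM2+ had 0.195% with 5 UMIs and 0.168% after thinning, and P301S/EKO/TREM2- 0.218% with no exclusion. E4/TREM2+ had 0% with 5 UMIs, 0.257% with 500 detected genes and 0.432% with no exclusion, and E4/TREM2- 0.0207% with 5 UMIs and 0.518% with no exclusion.

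Leaving out either library left 1 library and no residual degrees of freedom, so only each library's own log2 ratio stands, without a test. Of the genes named for the highest or lowest fold changes or ratios, none changed direction under the alternatives in which it had a value. Between the P301S/E4 libraries, Meg3, S100a6, Snhg11, Clu, Mt3 and Dkk2 had too few UMIs for a ratio under 3000 UMIs. Dkk2 had one only with TMM factors. Genes named in both comparisons were chosen for the same sign in both libraries. With no replicate block 4 of 25 and 3 of 25 kept their call, and with DESeq2 15 of 25 and 5 of 25. Vim between the P301S/E4 libraries did turn, from -2.08 to 0.71 under 3000 UMIs. Among list genes against other nuclei, S100a6 turned from 1.13 to -0.29 without nuclei of 3 or more non-myeloid UMIs, to -0.63 under 3000 UMIs and to -0.58 with fewer than 2 monocyte marker UMIs. Sqstm1 turned with P301S/E4/TREM2+ alone (-0.10), and S100a6 (-0.48) and Cp (-0.78) with P301S/E4/TREM2- alone. In the second comparison Cxcl10 did so with P301S/E4/TREM2+ alone (0.02). The planned tests by Apoe and by TREM2 over 4 libraries were not run. Genes at a few UMIs, in 1 to 3 nuclei, are limited by depth.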

Other observations

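Apoe in the few Gpnmb-high nuclei of the E4 libraries stood at 1044 CPM (5 UMIs) against 114 CPM in other nuclei of E4/TREM2+ and at 2426 CPM (11 UMIs) against 118 CPM in E4/TREM2-. In the P301S/EKO libraries it was at 0 in the Gpnmb-high nuclei. All these values are counts of the mouse gene. The E4 values rest on 5 nuclei a library, chosen mainly through Adam33, and the P301S/EKO values on 16 and 2 nuclei; no comparison was made.

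A few nuclei held much of the sequence. In P301S/E4/TREM2+, 4 Gpnmb-high nuclei of over 10000 UMIs held 14.4% of all Gpnmb-high UMIs, and in P301S/E4/TREM2- 10 held 13.2%. The deepest held 36615 UMIs.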
